A study of Mus musculus with 8 samples.

Results

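Glutathione is the main small thiol of the liver. The genes described here make it, use it and recycle it, or remove peroxides and superoxide alongside it. The set was a list of 45 genes, taken by gene symbol from the array's annotation: NRF2 and its inhibitor, NRF2 marker genes, glutathione synthesis and recycling, thioredoxin, glutathione transferases, and the peroxidases, dismutases and catalase. Where a gene had several probe sets, the one with the highest mean stood for it. Of the 45 genes, 39 had a probe set that the annotation gives to them alone, and 38 of these were bright enough to be tested, out of 13449 tested genes in all. Slc7a11, the cystine importer that supplies cysteine for glutathione, was dim on all 8 arrays. Gsta1, Gsta2, Gstz1 and Prdx1 are named on probe sets together with other genes and were given no value. Prdx5 and Prdx6 were not analysed here.

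The study is about glucose and lipid metabolism in mice with the E167K variant of Tm6sf2, whose protein helps to load lipid onto very low density lipoprotein. Total liver RNA of male mice labelled C57BL/6J was hybridised to whole-transcript arrays, 4 from wild type littermates and 4 from mice with the variant knocked in. The diet is not settled, because the series text gives 20 weeks of high-fat feeding, while the note on every array gives 14 weeks of either a fat-free diet rich in sucrose or chow. The labels read here give neither the age nor whether 1 or both alleles were changed.

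NRF2, encoded by Nfe2l2, is a transcription factor held in the cytosol and sent to degradation by KEAP1. When electrophiles or oxidants modify KEAP1, NRF2 enters the nucleus, pairs with small MAF proteins and binds antioxidant response elements of genes for detoxification and thiol metabolism. Transferases then join glutathione to reactive compounds, while peroxidases spend glutathione or thioredoxin to reduce peroxides, and reductases restore both thiols with NADPH. Hepatocytes hold large amounts of these enzymes.

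The antioxidant response element is shown first, as the element that NRF2 binds. RefSeq promoters (GRCm38.p6, 250 bases before to 50 after each start) were found for 39 of the 45 genes and searched on both strands for a 9-base core, TGACNNNGC, and for the NRF2 and small MAF site TGANTCAGC. The second pattern was added after the promoter of Srxn1 had been read, and TGACTCAGC satisfies both. The core was in 9 of the 39 genes (23.1%), against 14.0% of 27025 gene symbols with a promoter. Among tested genes with a promoter, it was in 8 of 33 of the set (24.2%), against 16.5% of 10546. The longer pattern was in 4 of 39 (10.3%), Srxn1, Pir, Gstp1 and Prdx1, against 1.37% of all symbols. Of the NRF2 markers, Nqo1, Ephx1 and Cbr3 held neither pattern, and Hmox1 had no promoter here. A match describes the letters in this window, and a gene without one may carry its element elsewhere. Matches are in capitals below, read in the direction of transcription, and those on the opposite strand appear as their reverse complement. The whole promoter is printed for Srxn1, the NRF2 marker with the largest change in this set, and for Gstt3, the gene with the largest change of all 38, which holds neither pattern. In Srxn1 the matches are centred 41 bases before the start and 32 after it. Shorter stretches are printed around a match in other NRF2 markers and targets and in Nfe2l2 itself.
Srxn1, chr2:152105274-152105573, plus strand: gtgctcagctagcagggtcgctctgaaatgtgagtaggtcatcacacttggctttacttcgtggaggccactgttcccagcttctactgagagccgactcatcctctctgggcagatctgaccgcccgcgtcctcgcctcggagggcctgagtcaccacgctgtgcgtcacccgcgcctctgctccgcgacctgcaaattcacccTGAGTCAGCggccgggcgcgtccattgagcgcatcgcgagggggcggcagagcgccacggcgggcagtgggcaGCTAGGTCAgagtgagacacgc
Gstt3, chr10:75781365-75781664, minus strand: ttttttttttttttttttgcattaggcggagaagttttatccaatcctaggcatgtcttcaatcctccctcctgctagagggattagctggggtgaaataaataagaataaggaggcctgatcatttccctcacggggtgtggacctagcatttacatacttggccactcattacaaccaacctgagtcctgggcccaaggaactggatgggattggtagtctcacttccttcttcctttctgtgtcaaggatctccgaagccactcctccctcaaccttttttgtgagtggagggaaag
Pir, chrX:164269197-164269245, plus strand: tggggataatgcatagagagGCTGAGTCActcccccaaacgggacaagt
Gstp1, chr19:4037958-4038006, minus strand: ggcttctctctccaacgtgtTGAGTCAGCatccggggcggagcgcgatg
Gclm, chr3:122245403-122245451, plus strand: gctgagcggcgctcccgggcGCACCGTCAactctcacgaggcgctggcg
Txnrd1, chr10:82859094-82859142, plus strand: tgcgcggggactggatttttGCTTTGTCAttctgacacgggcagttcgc
Gsta3, chr1:21240444-21240492, plus strand: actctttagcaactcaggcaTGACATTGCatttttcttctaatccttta
Nfe2l2, chr2:75704875-75704913, minus strand: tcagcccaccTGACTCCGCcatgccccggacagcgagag

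No antioxidant gene passed the threshold between the genotypes. The genotypes were compared by limma across all tested genes, with Benjamini-Hochberg adjustment and a threshold of 0.05, and 0 of 38 passed, against 0.0669% of all tested genes. At an unadjusted p under 0.05, which carries no error control, there were 5, or 13.2% of 38, against 11.3% of all tested genes. Of these, 4 were higher in the knock-in (10.5%, against 6.01%) and 1 was lower (2.63%, against 5.29%). The total share was near that of all genes and is no result about these genes. Whatever their p, 26 of the 38 were higher in the knock-in and 12 lower, where 51.1% of all tested genes were higher. The smallest adjusted p in the set was 0.252, for Srxn1. The median size of change, without sign, was 0.14 on the log2 scale, and 0.12 over all tested genes. In 30 of the 38 genes the 95% interval of the change lay within 1.5-fold in both directions. The other 8, for which a 1.5-fold change is within the interval, were Srxn1, Cbr3, Gstm2, Gstm3, Gstm4, Gstp1, Gstt3 and Mgst3.

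A change below is the mean log2 value of the knock-in arrays less that of the wild type arrays, with the standard error (SE) of the fit, and a level is a log2 value, with the SD over 4 arrays where a mean is given. Whether each array came from its own animal is not stated, and the p-values then cover the spread among these 8 arrays. In whole liver, fewer cells of a type and less RNA per cell cannot be told apart. Across arrays the medians were 3.73 to 3.80 and the pairwise correlations 0.973 to 0.980. Tm6sf2 was at 9.72 ± 0.22 and 9.66 ± 0.27, and as a coding change the variant is not checked by its level. Hepatocyte markers were bright in both genotypes (summed level 15.8 to 15.9 in each), with 1 of the 8, Serpina1a, lower at unadjusted p under 0.05 (change -0.35), and 0 of 5 neutrophil markers passed the filter on dim genes. The summed level of 6 Kupffer cell markers ran from 11.0 to 11.7 in wild type livers and from 10.9 to 11.6 in those with the knock-in. That of 5 sinusoidal endothelial markers ran from 11.57 to 11.67 in wild type and from 11.67 to 11.82 in the knock-in. These ranges met after rounding but did not overlap. Of the 5, 1, Lyve1, was higher at unadjusted p under 0.05 (change 0.73), where 6.01% of all tested genes were. Stellate cell markers summed to 11.4 to 11.9 and cholangiocyte markers to 6.9 to 7.2 across the 8 arrays. Their part in the results was not tested.

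**Figure D1:**
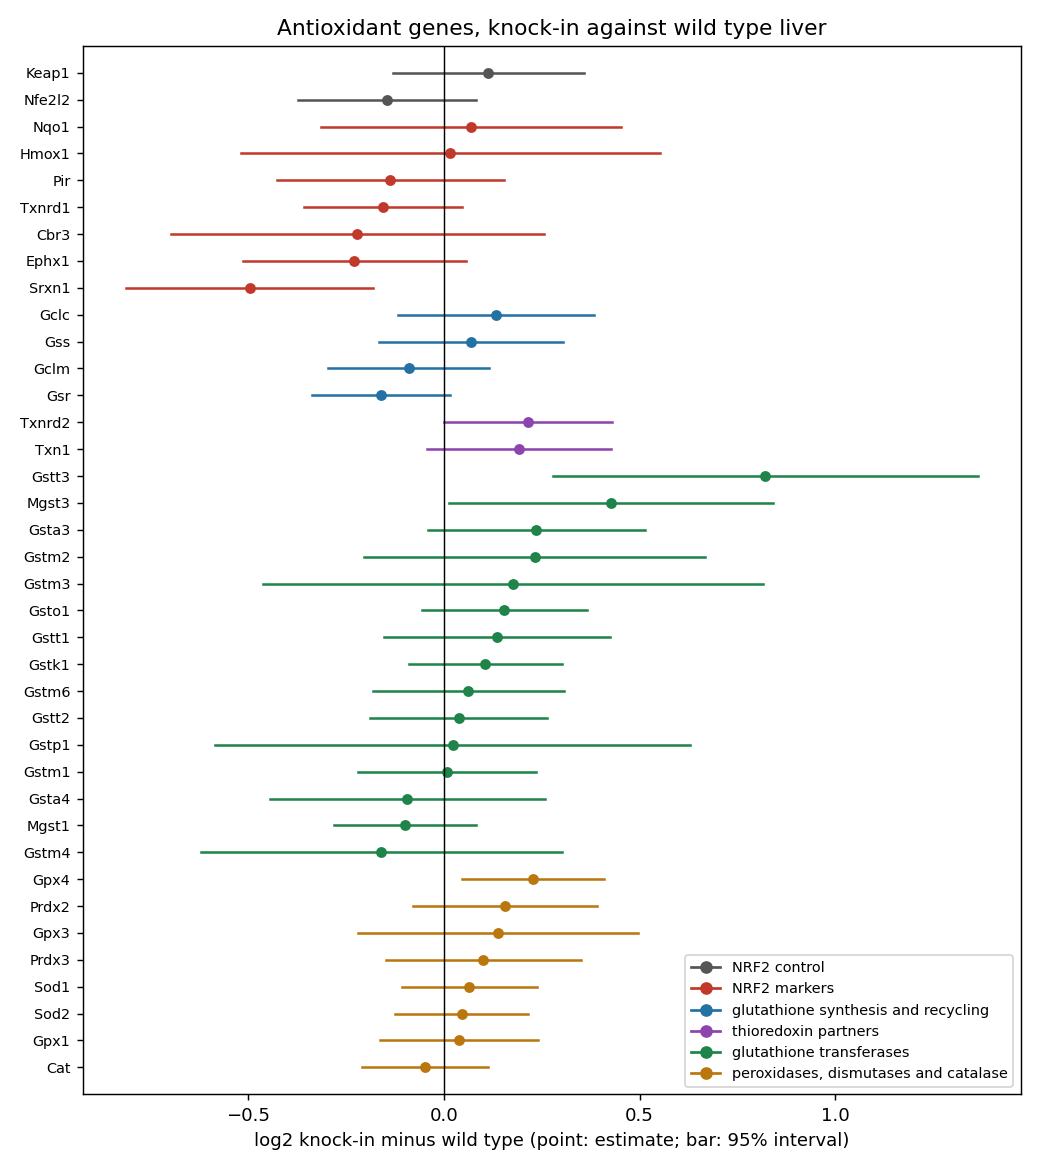
Change of each of the 38 tested genes (horizontal axis, log2 knock-in minus wild type; point, estimate; bar, 95% interval), grouped and coloured by class. Intervals of 33 genes include 0; Gstt3 lies farthest to the right at 0.82 and Srxn1 farthest to the left at -0.50.

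The regulators themselves differed little. Nfe2l2 was at 9.84, 9.57, 9.70 and 9.65 in wild type livers and 9.49, 9.38, 9.64 and 9.68 in those with the knock-in. The groups overlapped, with a change of -0.14 (SE 0.10, 95% interval -0.37 to 0.08, limma adjusted p = 0.639). Keap1, which targets NRF2 for degradation, was at 7.67, 7.64, 7.59 and 7.36 in wild type livers and 7.82, 7.75, 7.66 and 7.48 in those with the knock-in. Its groups overlapped too, with a change of 0.11 (SE 0.11, adjusted p = 0.747). The second, dimmer probe set of Keap1 was at -0.04. These are transcript levels, and NRF2 is controlled largely through the stability of its protein, which arrays do not measure.

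Among the 7 NRF2 markers, 5 were lower and 2 higher in the knock-in, with a median change of -0.15 against 0.0046 over all tested genes. Srxn1, sulfiredoxin, repairs overoxidised peroxiredoxins and is a strongly inducible NRF2 target. Its values, from probe set 17377666, were 7.61, 7.07, 7.59 and 7.61 in wild type livers and 7.16, 6.96, 6.84 and 6.94 in those with the knock-in. Of the wild type arrays, 3 stood above every knock-in array, and wild type replicate 2 lay among the knock-in values. The change was -0.50 (SE 0.14, 95% interval -0.81 to -0.18), an expression ratio of 0.709, with an unadjusted limma p of 0.00628 that did not pass after adjustment (0.252). The unadjusted p stayed under 0.05 under each of the 16 alternative settings, where the change ran from -0.63 to -0.45.

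Ephx1, the microsomal epoxide hydrolase, was at 10.94, 10.94, 11.10 and 11.25 in wild type livers and 10.67, 10.64, 10.92 and 11.08 in those with the knock-in. The lowest values were those of knock-in replicates 1 and 2, and the groups overlapped (change -0.23, SE 0.13, adjusted p = 0.535). Hmox1, heme oxygenase, split the knock-in arrays: it was at 7.31 and 7.35 in replicates 1 and 2 and at 8.15 and 8.22 in replicates 3 and 4. Wild type values were 7.55, 7.73, 7.58 and 8.10, all between these pairs, and the group means differed by 0.02 (SE 0.24). The same knock-in arrays were the lower pair for Pir, an iron-binding nuclear protein, at 6.36 and 6.60 against 6.84 and 6.95, while its 4 wild type values lay within 6.80 to 6.85. Hmox1 and Ephx1 deviated together over the 8 arrays, with a correlation of 0.90 after removal of the group means. For Hmox1 and Pir it was 0.84. That value rests mainly on the knock-in arrays, as the SD of Pir was 0.02 in wild type and 0.26 in the knock-in. Hmox1 is also a gene of Kupffer cells, and the summed Kupffer markers of the 4 knock-in arrays, in replicate order, were 10.9, 11.3, 11.4 and 11.6. Their part in the split was not tested.

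Nqo1, the quinone reductase often read as the index of NRF2 activity, was at 7.00, 6.68, 6.34 and 6.75 in wild type livers and 6.91, 6.63, 7.05 and 6.47 in those with the knock-in. The groups lay over each other, with a change of 0.07 (SE 0.17, 95% interval -0.31 to 0.45). Txnrd1, the cytosolic thioredoxin reductase, was at -0.15 (SE 0.09), and the carbonyl reductase Cbr3, close to the dim limit, at -0.22 (SE 0.21). The Cbr3 change was -0.44 (limma adjusted p = 0.355, with the unadjusted p under 0.05) without knock-in replicate 3 and -0.08 without knock-in replicate 1. The sign of the Nqo1 and Hmox1 changes turned on leaving out single arrays, so the split of 5 lower and 2 higher became 7 and 0 when replicate 3 of either genotype was left out. With each array left out in turn the class median stayed below 0, from -0.23 without knock-in replicate 4 to -0.08 without knock-in replicate 1.

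In glutathione synthesis and recycling, 2 genes were higher and 2 lower, and the median change was -0.01. Gclc, the catalytic subunit of the rate-limiting ligase, was at 10.37 ± 0.16 in wild type livers and 10.50 ± 0.14 in those with the knock-in. Gclm, its modifier subunit, was at 10.98, 11.03, 10.79 and 10.84 in wild type livers and 10.79, 10.71, 10.91 and 10.87 in those with the knock-in. Both overlapped between groups, with changes of 0.13 (SE 0.11) and -0.09 (SE 0.09). The paired subunits of this enzyme thus had estimates of opposite sign, and both 95% intervals included 0. Gss, which completes the tripeptide, was at 0.07 (SE 0.10).

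Gsr, the reductase that restores glutathione from its oxidised form with NADPH, was at 9.96, 9.83, 9.95 and 9.90 in wild type livers and 9.74, 9.78, 9.66 and 9.82 in those with the knock-in. Every knock-in value lay below every wild type value, by a small margin. Gsr was the 1 gene of the 38 apart in this direction, where 3.2% of all tested genes were. Its change was -0.16 (SE 0.08, 95% interval -0.34 to 0.02), with a limma adjusted p of 0.482.

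Both thioredoxin partners were higher, with a median of 0.20. Txnrd2, the mitochondrial thioredoxin reductase (probe set 17323711), was at 7.20, 6.91, 7.21 and 6.97 in wild type livers and 7.26, 7.33, 7.28 and 7.27 in those with the knock-in. The groups stood apart, and the knock-in values were tightly bunched (SD 0.03, against 0.15 in wild type). The change was 0.22 (SE 0.09, limma unadjusted p = 0.0485, adjusted p = 0.435), and the unadjusted p was under 0.05 in 6 of 16 alternatives. Txn1, cytosolic thioredoxin, was at 8.83, 8.66, 8.78 and 9.04 in wild type livers and 8.87, 9.11, 9.06 and 9.05 in those with the knock-in. Knock-in replicate 1 lay within the wild type range, and the change was 0.19 (SE 0.10, adjusted p = 0.528).

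**Figure D2:**
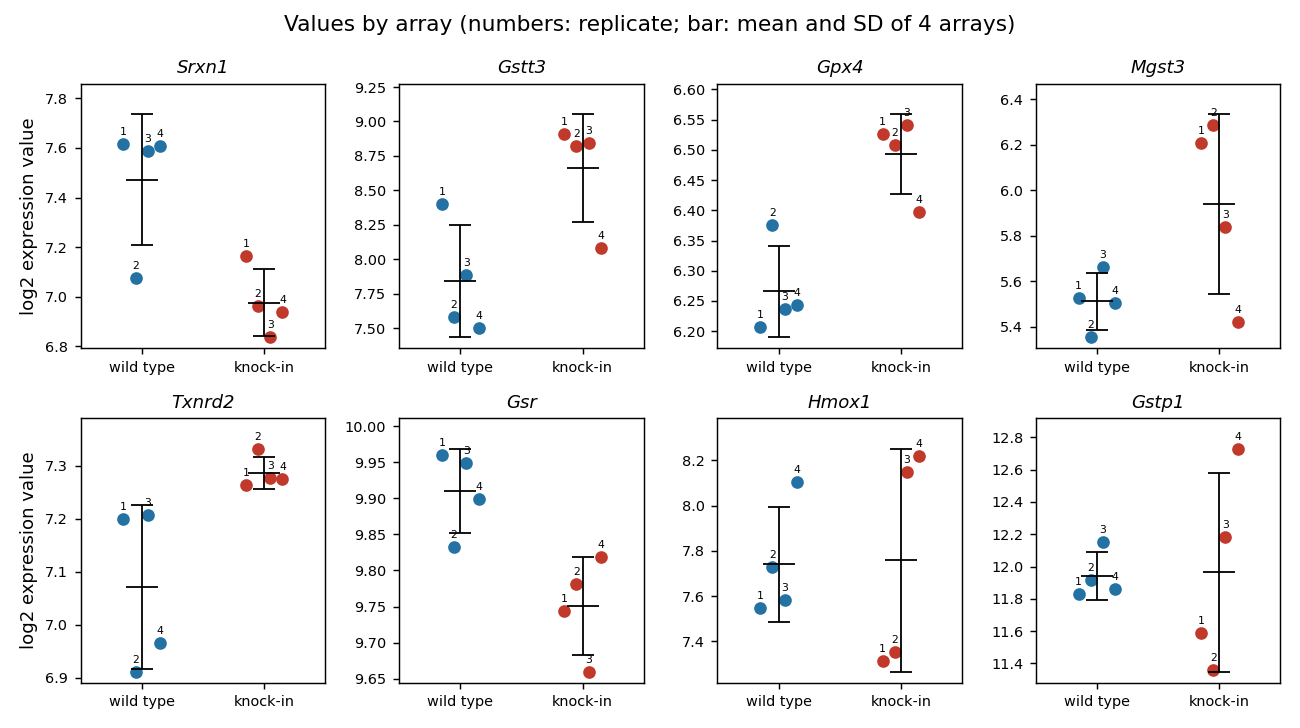
Log2 expression values of 8 genes on each array (vertical axes, scaled per gene and not starting at 0; points, arrays with their replicate number; bars, mean and SD of 4 arrays). Gpx4, Txnrd2 and Gsr do not overlap between genotypes, Srxn1, Gstt3 and Mgst3 overlap through 1 or more arrays, and Hmox1 and Gstp1 spread widely within the knock-in group.

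Glutathione transferases formed the largest class, and 12 of 15 tested genes were higher in the knock-in (11 of 15 after centring each array on its median, where Gstm1 turned). The median change was 0.11, and 2 of the 15 had an unadjusted p under 0.05, where 11.3% of all tested genes did. Leaving out single arrays gave 9 to 13 higher, the lowest count without replicate 1 of the wild type or replicate 2 of the knock-in. The class spans cytosolic alpha, mu, omega, pi and theta enzymes, mitochondrial and peroxisomal Gstk1, and the membrane-bound Mgst1 and Mgst3. Genes of the mu family resemble each other closely, as do Gstp1 and Gstp2, so the share of each copy in these values is uncertain.

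Gstt3, a theta class transferase, had the largest change of the 38 genes. Its values, from probe set 17241921, were 8.40, 7.58, 7.88 and 7.50 in wild type livers and 8.91, 8.82, 8.84 and 8.08 in those with the knock-in. Of the knock-in arrays, 3 stood above every wild type array, while knock-in replicate 4 lay below wild type replicate 1. The change was 0.82 (SE 0.24, 95% interval 0.28 to 1.36), or 1.77-fold, with an unadjusted limma p of 0.00759 and an adjusted p of 0.263. Under the 16 alternatives it ran from 0.71 to 1.01, each with an unadjusted p under 0.05 and none past the adjusted threshold. Its theta class relatives Gstt1 and Gstt2 were at 0.14 (SE 0.13) and 0.04 (SE 0.10).

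Mgst3, a microsomal transferase (probe set 17229403), was at 5.53, 5.35, 5.66 and 5.50 in wild type livers and 6.21, 6.29, 5.84 and 5.42 in those with the knock-in. Of the knock-in arrays, 3 lay above all wild type arrays, and replicate 4 lay within them. The change was 0.43 (SE 0.18, limma unadjusted p = 0.0446, adjusted p = 0.419), and it was 0.60 without knock-in replicate 4 and 0.31 without knock-in replicate 2. The unadjusted p was under 0.05 in 7 of the 16 alternatives. Gstp1, the pi class enzyme, was at 11.83, 11.92, 12.15 and 11.86 in wild type livers and 11.59, 11.36, 12.18 and 12.73 in those with the knock-in. The knock-in arrays lay on both sides of the wild type, with an SD of 0.62 against 0.15, and the means differed by 0.02 (SE 0.27). Gstp1 and Mgst3 correlated at -0.88 over the 8 arrays after removal of the group means. Only the knock-in arrays ran in opposite directions, and in wild type both genes were highest in replicate 3. The knock-in group also had the larger spread for Mgst3 (SD 0.40, against 0.13 in wild type).

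Gsta3, an alpha class enzyme and known NRF2 target, was at 10.97, 10.88, 10.56 and 10.82 in wild type livers and 11.05, 11.08, 11.24 and 10.81 in those with the knock-in. Knock-in replicate 4 again fell within the wild type range, and the change was 0.24 (SE 0.12, adjusted p = 0.513). In the mu family, Gstm2 was at 0.23 (SE 0.19) and Gstm3 at 0.18 (SE 0.28), Gstm4 at -0.16 (SE 0.20), Gstm6 at 0.06 (SE 0.11) and Gstm1 at 0.0082 (SE 0.10). Gsto1 was at 0.16 (SE 0.09) and Gstk1 at 0.11 (SE 0.09), while Gsta4, which acts on lipid peroxidation products, and Mgst1 were at -0.09 (SE 0.15) and -0.10 (SE 0.08). None of these 10 had an unadjusted p under 0.05.

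Gstt1, Gstm2 and Gstt3 varied together between arrays of one genotype. With group means removed, Gstt1 correlated over the 8 arrays with Gstm2 at 0.94 and with Gstt3 at 0.86, and Gstm2 with Gstt3 at 0.87. These were among the highest of 703 pairs, which ran from -0.93 to 0.94 with a median of 0.05, and all come from the same 8 hybridisations. The pairs named here and above were picked as extremes, and whether they exceed chance was not tested. Knock-in replicate 4 was the lowest knock-in array for all 3 genes: Gstm2 was at 7.26, 7.62, 7.54 and 6.82 in these arrays, Gstt1 at 10.79, 11.04, 10.90 and 10.50, and Gstt3 at 8.91, 8.82, 8.84 and 8.08. The highest was replicate 2 for Gstm2 and Gstt1 and replicate 1 for Gstt3. Over the 105 pairs of transferases the median correlation was 0.11.

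**Figure D3:**
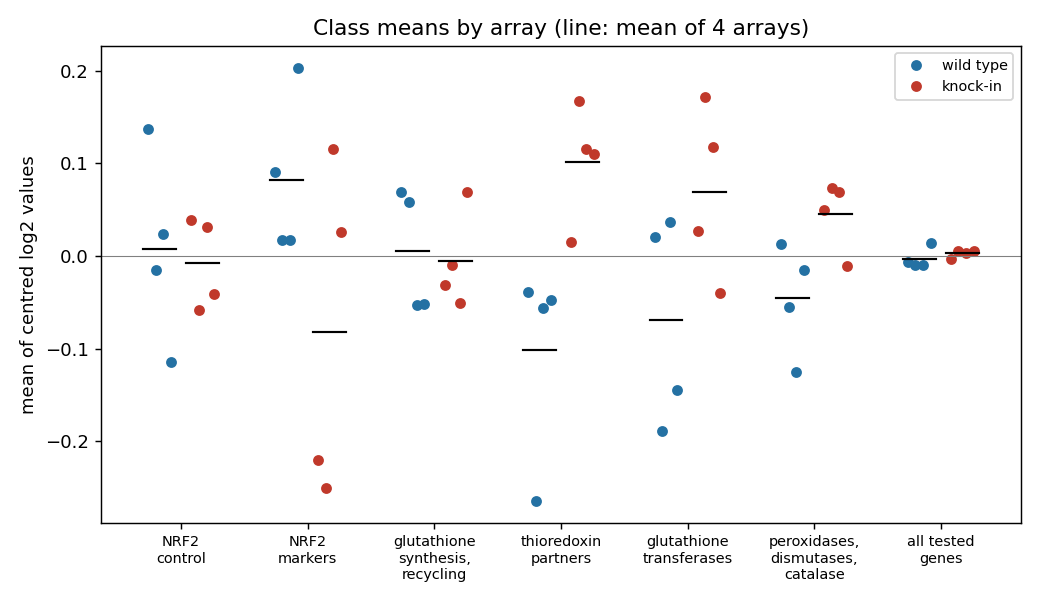
Mean of the tested genes of each class on every array (vertical axis, log2 value centred per gene on its mean over 8 arrays; points, arrays; lines, mean of 4 arrays). Thioredoxin partners are the class whose genotypes do not overlap, and in the NRF2 markers knock-in replicates 1 and 2, at -0.22 and -0.25, lie below the other 6 arrays.

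Differences were small among the peroxidases, dismutases and catalase, with 7 of 8 tested genes higher and a median of 0.08 (6 to 7 higher with single arrays left out). Gpx4, the peroxidase that reduces lipid hydroperoxides in membranes and restrains ferroptosis, was at 6.21, 6.38, 6.24 and 6.24 in wild type livers and 6.53, 6.51, 6.54 and 6.40 in those with the knock-in (probe set 17235166). The groups did not overlap, although wild type replicate 2 and knock-in replicate 4 nearly met. The change was 0.23 (SE 0.08, 95% interval 0.05 to 0.41), or 1.17-fold, with an unadjusted limma p of 0.0194 and an adjusted p of 0.338. The unadjusted p was under 0.05 in 12 of the 16 alternatives and at most 0.0534 in the rest. Gpx4 and Txnrd2 were the 2 of 38 genes apart with the knock-in higher, where 3.96% of all tested genes were.

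Cat, catalase, was at 13.49, 13.46, 13.48 and 13.45 in wild type livers and 13.45, 13.38, 13.46 and 13.40 in those with the knock-in. These values lie near the highest value on any array, where differences may be compressed, which was not tested. The change was -0.05 (SE 0.07). The superoxide dismutases Sod1 and Sod2, of the cytosol and the mitochondrion, were at 0.07 (SE 0.08) and 0.05 (SE 0.08). Gpx1, the main cytosolic glutathione peroxidase, was at 0.04 (SE 0.09), with a 95% interval of -0.16 to 0.24. Prdx3, the mitochondrial peroxiredoxin, and Prdx2, the cytosolic one, were at 0.10 (SE 0.11) and 0.16 (SE 0.10), and the secreted Gpx3 at 0.14 (SE 0.16). Prdx2 and Gpx1 are also abundant in red cells, of whose 6 listed markers 1, Slc4a1, had a value, at 4.24 in wild type livers and 4.21 in those with the knock-in.

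**Figure D4:**
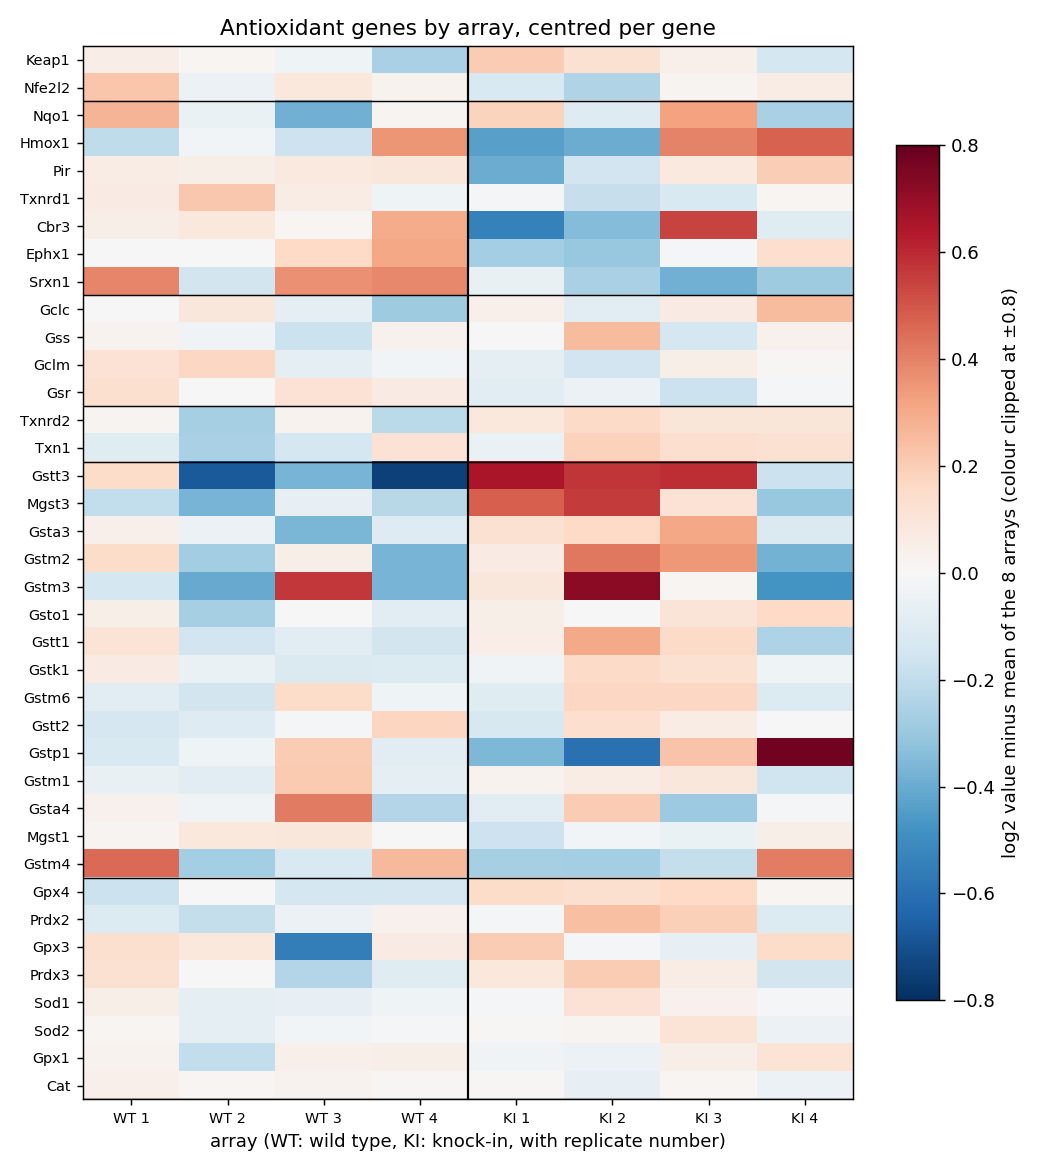
Values of the 38 tested genes (rows, by class and then by change) on each array (columns), as log2 value minus the gene's mean over the 8 arrays, with colours clipped at ±0.8. Gstt3 and Srxn1 show the broadest contrast between the genotypes, and Hmox1, Pir, Ephx1 and Gstp1 split the knock-in arrays into replicates 1 and 2 against 3 and 4.

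The promoter patterns shown at the outset were set beside the changes as a description. Of the 8 tested genes with TGACNNNGC, 6 were lower in the knock-in (Srxn1, Txnrd1, Nfe2l2, Pir, Mgst1 and Gclm, at -0.50 to -0.09) and Gsta3 and Sod1 were higher. Of the 25 tested genes whose promoter lacked it, Nqo1 among them, 21 were higher. Hmox1, Gclc, Gsr, Gsta4 and Gstt2 had no promoter here and stand in neither group. Counting either pattern gave 6 lower of 9 with a match and 20 higher of 24 without. TGANTCAGC was in 3 tested genes of the set, 2 lower and 1 higher. Over all tested genes with a promoter, 50.1% of 1745 with TGACNNNGC were higher, and 51.1% of 8801 without it. Of the 9 with either pattern, 1 gene, Srxn1, had an unadjusted p under 0.05, where 11.3% of all tested genes did. The split of directions by pattern was not tested.

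A list of 58 further genes of the same pathways, of which 49 were tested, had a median change of 0.07. Of the 49, 1 gene passed the threshold, against 0.0669% of all tested genes. At unadjusted p under 0.05, 5 were higher and 2 lower, against 6.01% and 5.29% of all tested genes. The called gene was Nnt, the mitochondrial transhydrogenase that makes NADPH for glutathione and thioredoxin reduction, at 8.27, 8.21, 8.29 and 8.38 in wild type livers and 9.45, 9.37, 9.41 and 9.13 in those with the knock-in (change 1.05, SE 0.09, limma adjusted p = 0.00951). Nnt is known to differ between C57BL/6 substrains. The mice are labelled C57BL/6J, and whether substrain background differs between the genotypes was not tested. Chac1, which degrades glutathione in the cytosol, was at 4.30, 4.93, 3.86 and 4.52 in wild type livers and 5.95, 5.86, 5.63 and 5.14 in those with the knock-in. Its groups stood apart by a change of 1.24 (SE 0.25, adjusted p = 0.119).

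Msra, a methionine sulfoxide reductase, was higher by 0.21 (SE 0.08) and Glrx2, mitochondrial glutaredoxin, was at -0.18 (SE 0.08). Their limma adjusted p-values were 0.354 and 0.403. Of the tested list genes, Nnt, Chac1, Msra, Akr7a5 and Gnmt were apart with the knock-in higher, where 3.96% of all tested genes were. Glrx2 was apart with the knock-in lower, where 3.2% were. Among NRF2 partners and further targets, 2 of 15 were higher and 1 lower at unadjusted p under 0.05, against 6.01% and 5.29% of all tested genes. They were Mafg, a small MAF partner of NRF2, at 0.29 (SE 0.11), the aldehyde reductase Akr7a5 at 0.19 (SE 0.08), and Sqstm1, the autophagy receptor p62 that binds KEAP1, at -0.27 (SE 0.11). Their adjusted p-values were 0.382, 0.383 and 0.371.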

How the data were processed

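Values were deposited on the log2 scale for each probe set on each array, after normalization by the authors. The submitters' processing notes name RMA and limma, without versions, and the genome build of the array is not stated there. After RMA, a change shared by most genes is no longer visible. Of 41345 probe sets, 23521 carried exactly 1 gene symbol, 1814 several, and 16010 were not listed with a gene. Symbols were checked by Entrez identifier against RefSeq (GRCm38.p6): 23328 matched and 0 changed.

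Of 22180 genes, those with at least 4 of 8 arrays above the array's 40th percentile of single-symbol probe sets were tested (13449). The genotypes were compared in limma 3.58.1 under R 4.3.3 (lmFit, eBayes, two-sided, no other term). The fit was tested on simulated data. Array number limits the precision. Correlations between genes used deviations from group means.

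Genes given per array were Nfe2l2, Keap1, those with unadjusted p under 0.05, and in each class those with the largest change and the highest mean. Hmox1, Pir, Nqo1, Gsta3, Gstm2 and Gstt1 were added after their values were seen. From the further pathway lists, up to 4 per list with unadjusted p under 0.05 were named. Gnmt was also named, as its groups stood apart. The genes and lists were chosen with earlier results of these data known. The alternatives were 2 filters on dim genes, 2 normalizations, the mean of probe sets, another prior, array weights, a replicate block and 8 left-out arrays. Replicate numbers were not used to pair the arrays in the main fit. Same-numbered arrays correlated at 0.10, -0.11, -0.03 and -0.04 in their deviations from group means, in replicate order. For replicate 1 the highest value with another number was 0.03. Weak correlations cannot exclude a pairing.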

Additional observations from a re-analysis of the deposited data

Results flagged for a closer look

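In each group of 4 arrays, the gap between the most extreme array and its nearest neighbour was divided by the range of the group, and a share above Dixon's 95% critical value marks an array that stands apart. Of 76 groups examined, 6 did so, where chance marks about 1 in 20. Srxn1 in wild type had replicate 2 at 7.07 with the others at 7.59 to 7.61 (0.952). Gstt3 in knock-in had replicate 4 at 8.08 with the others at 8.82 to 8.91 (0.898). Gstm4 in knock-in had replicate 4 at 6.59 with the others at 5.91 to 5.99 (0.885). Gpx1 in wild type had replicate 2 at 11.6, below the others (0.923). Gstm1 in wild type had replicate 3 at 8.54 with the others at 8.25 to 8.27 (0.925), and Gpx3 in wild type had replicate 3 at 4.95 with the others at 5.56 to 5.63 (0.901). Without wild type replicate 2 the change of Srxn1 was -0.63, and without knock-in replicate 4 that of Gstt3 was 1.01.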

How the results depend on the processing

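Under each of the 16 alternatives, 0 of the tested antioxidant genes passed the adjusted threshold, and the number with an unadjusted p under 0.05 ran from 3 to 7. Over all genes, 9 passed the threshold, and the number was 2 with no filter on dim genes, 27 with the stricter filter, 73 with the trended and robust prior, 24 with probe sets averaged, 25 with array weights and 1 to 12 with single arrays left out. With the replicate block, that is the replicate number as a term, 2 genes passed over all, and 1 antioxidant gene was higher and 2 lower at unadjusted p under 0.05. Of 8 arrays, 2 correlated best with the array of their own number. Antioxidant genes higher at unadjusted p under 0.05, 4, numbered 2 after median centring and 1 to 5 with single arrays left out. Those lower, 1, numbered 3 with the trended prior and 1 to 2 with single arrays left out. The median of glutathione synthesis was -0.090 with no filter, which adds the dim Slc7a11. Of 607 single-gene values, 583 kept their direction and 24 turned, in 10 genes whose changes were at most 0.18 in size. Gstm1 turned to -0.00018 after median centring and Hmox1 to -0.0077 with array weights. With single arrays left out the ranges were -0.048 to 0.17 for Nqo1, -0.14 to 0.17 for Hmox1, -0.0024 to 0.13 for Gss, -0.19 to 0.030 for Gsta4, -0.020 to 0.078 for Gstm1, -0.035 to 0.39 for Gstm3, -0.23 to 0.22 for Gstp1, -0.00051 to 0.10 for Gstt2, -0.019 to 0.062 for Gpx1 and -0.024 to 0.20 for Gpx3. The cause of these shifts was not tested. With 4 arrays per genotype, changes within the 95% intervals given are not resolved.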
